A study of Danio rerio with 4 samples.

Results

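The core calcium handling genes of the heart muscle cell are described by 5 symbols of the deposited gene table: atp2a2a, casq2, ryr2b, slc8a1a and cacna1c. They matched 6 of the 31466 features, because atp2a2a stands on 2 Ensembl genes, ENSDARG00000029439 and ENSDARG00000005122, which were kept apart. The other identifiers are ENSDARG00000008982 (casq2), ENSDARG00000003706 (ryr2b), ENSDARG00000013422 (slc8a1a) and ENSDARG00000008398 (cacna1c). The genes were chosen by symbol, although earlier results of these data were known. They were read in 13918 gated cardiomyocytes, 2220 atrial and 11698 ventricular, among 55075 cells kept. A further 3921 cells had myosins of both chambers, and 27088 passed no gate.

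In a cardiomyocyte each beat begins with calcium entry through the L-type channel, whose pore is encoded by cacna1c. The entering calcium opens the ryanodine receptor (ryr2b) of the sarcoplasmic reticulum, where calsequestrin (casq2) buffers the stored calcium. Relaxation follows as the SERCA pump (atp2a2a) returns calcium to the store and the sodium-calcium exchanger (slc8a1a) carries it out of the cell.

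The data are single-cell libraries (scSLAM-seq) of hearts of adult zebrafish of genotype AB. There were 2 libraries of cryoinjured hearts taken 6 h post cryoinjury (6 hpci) and 2 of sham hearts taken 6 h post sham (6 hps). In cryoinjury a cooled probe was put on the ventricle, and in the sham operation the pericardium was opened without the probe. Fish of both groups had been given 4-thiouridine (4sU), a uridine analogue that marks new RNA, by intrathoracic injection 1 h before the operation. Hearts of several fish were pooled per library, and the cells were fixed in methanol and treated with iodoacetamide. The counts add labeled and unlabeled RNA. p-values of the group tests measure the spread between these pools, with 2 per group. Those between chambers or cell types rest on several sums per library. They measure the spread left after differences between libraries are taken out.

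The libraries held 15971 to 23000 barcodes and 86891164 to 136777379 unique molecular identifiers (UMIs, counted RNA molecules). The second 6 hpci library stood apart, with a median of 46.3% mitochondrial UMIs per barcode, against 27.8% in the other 6 hpci library and 33.4% and 29.7% in the 6 hps libraries. Results that rest on it are given without it where that changes them. Of 77293 distinct barcodes, 820 occurred in 2 libraries and 7 in 3.

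Cardiomyocytes were gated on myosins and muscle markers that do not include the 5 symbols. Atrial cells had at least 80% of their chamber myosin UMIs from myh6, and ventricular cells at least 80% from the ventricular myosins. Markers left out of the gate followed the names. Atrial cells had 234 to 449 CPM (UMI counts scaled to an equal total for every sum) of smtnl1, against 39.9 to 81.0 CPM in ventricular cells. The ventricular factor irx1a had 0 to 2.82 CPM in atrial cells, against 4.01 to 24.7 CPM in ventricular cells. The ventricular marker hey2 was near 0 in both, with at most 0.627 CPM in atrial and 0.528 CPM in ventricular cells.

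Atrial cells carried more RNA of the pump, the receptor, the exchanger and the L-type channel than ventricular cells, while casq2 did not pass the test. Here and below, a log2 fold change is from edgeR's quasi-likelihood test on UMI sums, with p adjusted over all genes tested (Benjamini-Hochberg, threshold 0.05). The chamber was tested within libraries, over 4 pairs of sums. CPM folds are not scaled by the TMM factors of the fit. With library sizes alone, as in CPM, the median log2 fold change over all genes was 0.31, against 0.021 with TMM factors. CPM folds between the chambers thus tend to lie above the fitted ones. Of the 6 features, 5 were higher in atrial cells, where 13.6% of all 9722 genes tested were called higher and 17.1% lower, 30.7% together.

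The SERCA pump atp2a2a (ENSDARG00000029439) had 1330 and 1858 CPM in atrial cells of 6 hpci replicates 1 and 2 and 1386 and 1841 CPM in those of 6 hps replicates 1 and 2. Ventricular cells had 643 and 871 CPM at 6 hpci and 855 and 733 CPM at 6 hps. The chambers did not overlap, and the pump was 1.62 to 2.51-fold higher by CPM in atrial cells of the 4 libraries. The log2 fold change was 0.76 (SE 0.11, edgeR adjusted p = 4.49e-06).

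The exchanger slc8a1a had the widest chamber gap among the abundant features. It had 192 and 242 CPM in atrial cells at 6 hpci and 195 and 249 CPM at 6 hps, against 55.5 and 97.2 CPM in ventricular cells at 6 hpci and 71.9 and 77.0 CPM at 6 hps. The lowest atrial value was above every ventricular one, by 2.49 to 3.46-fold within a library. In the fit slc8a1a was higher by 1.28 on the log2 scale (SE 0.11, edgeR adjusted p = 7.72e-10).

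The release channel ryr2b had 139 and 193 CPM in atrial cells at 6 hpci and 109 and 189 CPM at 6 hps. In ventricular cells it had 58.8 and 107 CPM at 6 hpci and 58.1 and 63.8 CPM at 6 hps. The ranges nearly met, at 109 CPM in atrial cells of one library and 107 CPM in ventricular cells of another, but within each library the atrial value was 1.81 to 2.96-fold higher. The fitted log2 fold change was 0.86 (SE 0.11, edgeR adjusted p = 1.52e-06).

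Calsequestrin casq2 went with neither chamber. It had 284 and 354 CPM in atrial cells at 6 hpci and 268 and 256 CPM at 6 hps, against 250 and 325 CPM in ventricular cells at 6 hpci and 275 and 241 CPM at 6 hps. The chambers overlapped, and atrial over ventricular CPM was 0.972 to 1.14-fold. The log2 fold change was -0.19 (95% interval -0.39 to 0.011, edgeR adjusted p = 0.171). Its sign turned with the scaling, to 0.089 with library sizes alone, where the median over all genes was 0.31, against 0.021 with TMM factors. The split of called genes moved with it, since 73.2% of calls were higher in atrial cells with library sizes alone and 44.3% with TMM factors. With a stricter myosin gate of 95% casq2 was called lower in atrial cells (-0.36, edgeR adjusted p = 0.0284), as it was without 6 hpci replicate 2 (-0.30, edgeR adjusted p = 0.0479) and with chambers from Leiden clusters (-0.28, edgeR adjusted p = 0.0257).

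The L-type channel cacna1c was counted rarely, with 114 UMIs in all atrial and 158 in all ventricular cells. It had 2.51 and 3.73 CPM in atrial cells at 6 hpci and 3.62 and 4.97 CPM at 6 hps, against 0.992 and 1.70 CPM in ventricular cells at 6 hpci and 1.61 and 1.12 CPM at 6 hps. Although sparse, cacna1c was higher in atrial cells of 4 of 4 libraries, by 2.19 to 4.45-fold. The log2 fold change was 1.20 (SE 0.24, edgeR adjusted p = 0.000321). With cells limited to 30% mitochondrial UMIs it was 0.78 and no longer called (edgeR adjusted p = 0.131).

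The second atp2a2a feature (ENSDARG00000005122) was as sparse, with 215 atrial and 529 ventricular UMIs. It had 5.02 and 3.84 CPM in atrial cells at 6 hpci and 9.73 and 9.40 CPM at 6 hps, against 2.91 and 1.54 CPM in ventricular cells at 6 hpci and 6.39 and 5.0 CPM at 6 hps. The log2 fold change was 0.57 (SE 0.19, edgeR adjusted p = 0.0198), and this call was lost in 8 of 14 alternatives, among them leaving out 6 hpci replicate 1, 6 hpci replicate 2 or 6 hps replicate 2 (edgeR adjusted p = 0.0545, 0.180 and 0.0674). Both features bear 1 symbol, and whether reads were split between them by the counting was not tested.

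**Figure D1:**
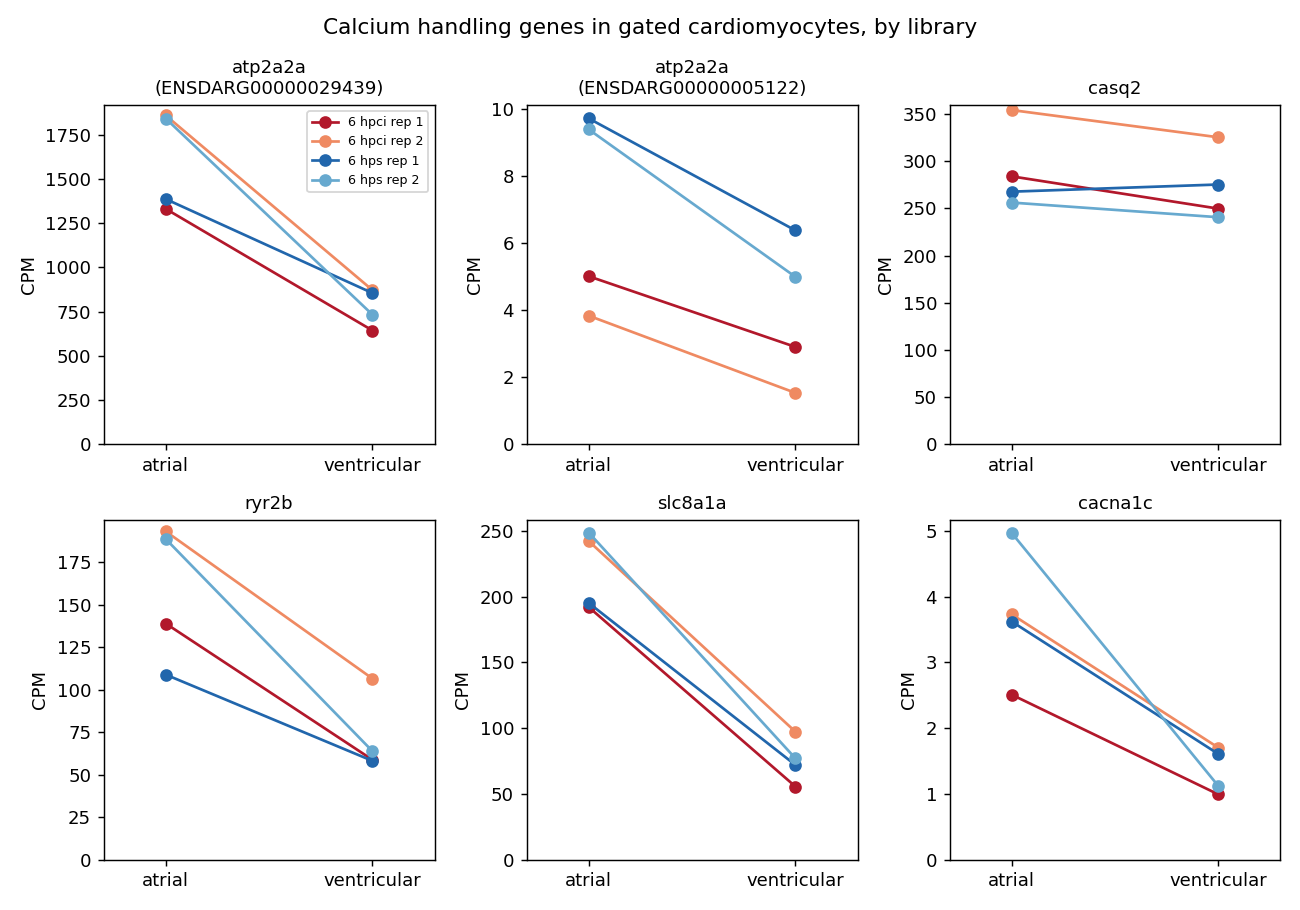
CPM (y axis) of the 6 features in atrial and ventricular cardiomyocytes (x axis), with a line for each of the 4 libraries. Lines fall from atrial to ventricular in every library for all features but casq2, whose atrial over ventricular CPM was 0.972 to 1.14-fold.

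Atrial cells held more mitochondrial RNA than ventricular cells in 4 of 4 libraries, with a median of 30.8 to 34.3% mitochondrial UMIs against 23.8 to 31.1%. They were deeper in 3 of 4, with a median over all libraries of 8311 to 16098 UMIs in atrial and 3967 to 9430 UMIs in ventricular cells. The exception was 6 hpci replicate 1, with 8311 UMIs in atrial and 9430 UMIs in ventricular cells. Summed cardiomyocyte markers were 69391 to 86897 CPM in atrial cells and 78907 to 101993 CPM in ventricular cells. When every cell was thinned to 2000 UMIs, which left out 57 atrial and 1449 ventricular cells (and 89 erythrocytes), the log2 fold change was 0.94 for the abundant atp2a2a, 1.03 for ryr2b, 1.47 for slc8a1a and 1.76 for cacna1c, and these 4 were still called. Per thinned cell the median was 3 UMIs of the abundant atp2a2a in atrial cells of each library and 1 UMI in ventricular cells. Among these thinned cells the variance of its count was 1.72 to 2.37 times the mean in atrial cells, against 1.40 to 1.65 times in ventricular cells. The mean itself was 3.14 to 3.84 UMIs in atrial and 1.35 to 1.70 UMIs in ventricular cells. Because this ratio can rise with the mean, it does not show that atrial cells vary more. The 2.37 was in 6 hps replicate 1, where the largest count was 32. A count that varied by sampling alone would have a variance equal to its mean.

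Cells with both myosins lie between the chambers by the definition of the gate. All gated cardiomyocytes and those with both myosins were binned by the atrial share of their chamber myosin UMIs, into 7 bins with at least 99 cells of each library in each. The abundant atp2a2a went up at 5 or 6 of 6 steps in every library, to 1.71 to 2.66 times its level in the lowest bin. Its mean over libraries was 769 CPM in the lowest bin, 1084 CPM at an atrial share of 40 to 60% and 1683 CPM in the highest bin. The exchanger slc8a1a went up at 5 or 6 of 6 steps and ryr2b at 4 to 6, ending at 2.70 to 3.91 times and 1.88 to 3.37 times the lowest bin. Against this, casq2 went up at 3 or 4 steps and ended at 0.907 to 1.18 times the lowest bin, with its lowest mean, 223 CPM, at an atrial share of 20 to 40%. Depth moved with the bins, with a median per library of 3928 to 8057 UMIs in the lowest, 9371 to 20582 UMIs at 40 to 60% and 7780 to 15071 UMIs in the highest, and its part in these levels was not tested. No doublet caller was run, so a barcode holding an atrial and a ventricular cell could not be told apart from a single cell with both myosins.

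**Figure D2:**
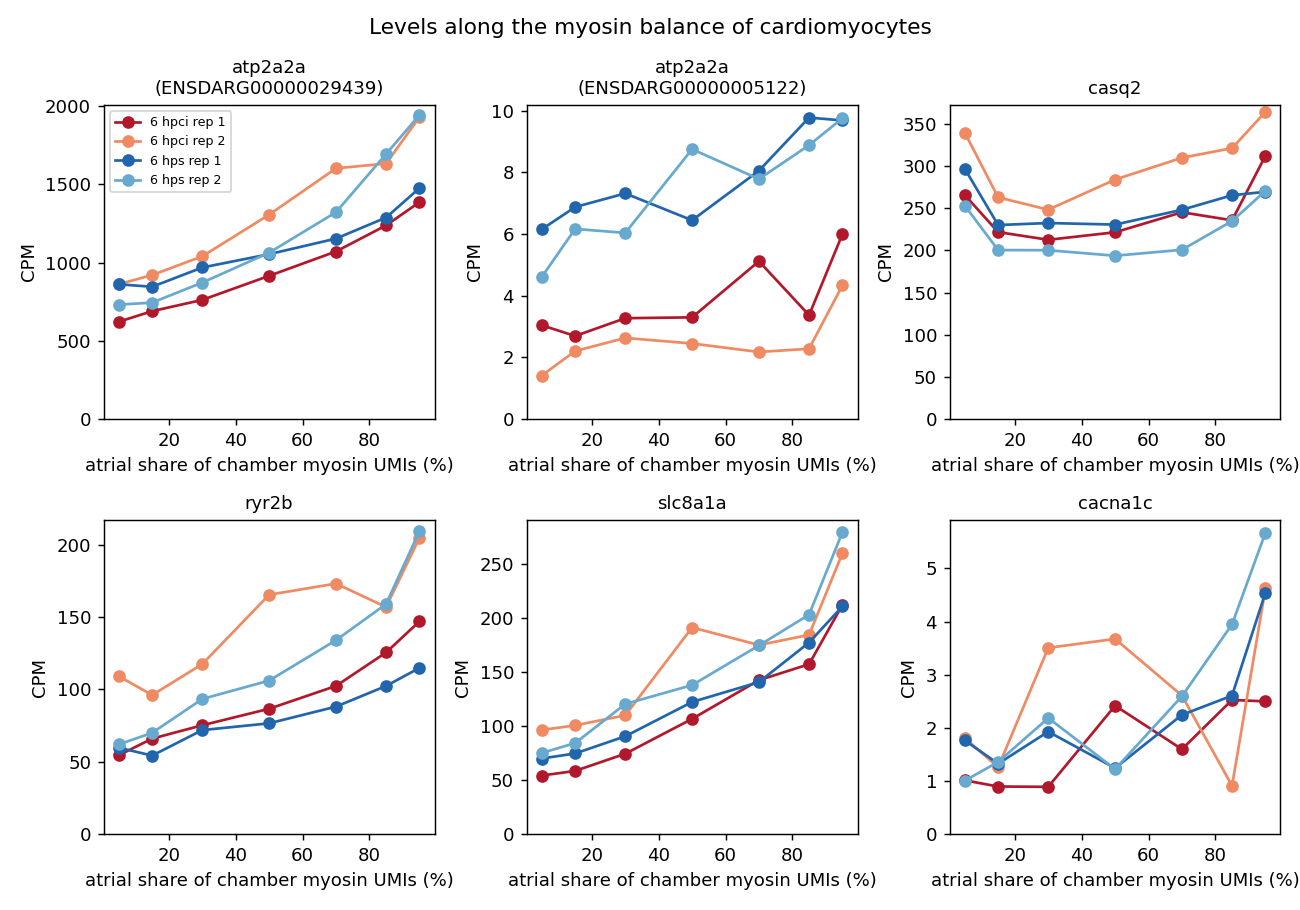
CPM (y axis) of the 6 features in cardiomyocytes binned by the atrial share of chamber myosin UMIs (x axis, bin centres), with a line for each library. The abundant atp2a2a and slc8a1a go up at 5 or 6 of 6 steps, while casq2 ends at 0.907 to 1.18 times its level in the lowest bin.

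Barcodes over the limit of 50% mitochondrial UMIs were left out of these sums. The same genes were read in those that passed the other cardiomyocyte gates, as CPM of the non-mitochondrial UMIs. The marker limits of these gates were computed anew among the barcodes left out, so they can differ from those of the cells kept. In 5805 such ventricular barcodes ryr2b had 274 to 510 CPM, against 76.4 to 153 in the ventricular cells kept, 3.33 to 4.17-fold within a library. The exchanger slc8a1a was 2.54 to 4.84-fold, the abundant atp2a2a 2.10 to 2.90-fold and casq2 1.57 to 2.24-fold higher in the ventricular barcodes left out. Summed cardiomyocyte markers, read the same way, were 0.901 to 1.01-fold, so the 4 genes stood above these markers there. A minimum share of these markers was itself part of the gate. The 505 atrial barcodes left out gave 1.36 to 2.60-fold for the abundant atp2a2a and 1.66 to 3.52-fold for ryr2b, with 0.745 to 1.01-fold for the markers. The barcodes left out were shallow, with a median of 978 to 1227 non-mitochondrial UMIs in ventricular ones against 2822 to 7063 in those kept. The part of depth or cell quality in these levels was not tested.

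Outside the heart muscle, reads of these genes were present in every gated cell type. The abundant atp2a2a ran, by the median over libraries, from 1613 CPM in atrial cells through 794 in ventricular cells, 655 in neutrophils, 502 in macrophages, 494 in smooth muscle and mural cells, 440 in fibroblasts and 388 in endocardium to 213 CPM in erythrocytes. Atrial cells stood above and erythrocytes below all others, whereas the ranges of every other pair of neighbours overlapped, as for ventricular cells (643 to 871 CPM) and neutrophils (528 to 858 CPM). For ryr2b and slc8a1a, too, the ranges of ventricular cells and neutrophils overlapped, at 58.1 to 107 and 64.1 to 77.0 CPM for ryr2b and at 55.5 to 97.2 and 67.4 to 107 CPM for slc8a1a. For casq2 they did not, with 241 to 325 CPM in ventricular cells and 128 to 187 CPM in neutrophils.

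Cardiomyocyte marker RNA was present in the other types too. Summed cardiomyocyte markers had 11884 to 23358 CPM in erythrocytes, which should lack them, and 34400 to 77450 CPM in neutrophils. The part of free cardiomyocyte RNA in the levels of these types was not tested. After thinning to 2000 UMIs, a UMI of the abundant atp2a2a was seen in 91.2 to 93.9% of atrial cells, 68.6 to 77.6% of ventricular cells and 21.4 to 34.6% of erythrocytes. Without thinning these shares were 98.5 to 99.7%, 86.4 to 93.9% and 48.0 to 60.2%, the erythrocytes having a median of 4981 to 7365 UMIs. A UMI of casq2 was seen in 7.39 to 11.4% of thinned erythrocytes, and one of slc8a1a in 2.28 to 3.55%.

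Over all tested types, cardiomyocytes were taken as the mean of atrial and ventricular cells, with equal weight. They had higher levels than the mean of the 6 other types for 5 of the 6 features, where 25% of the 7234 genes tested were called higher. The sums of all types came from the same 4 libraries, so they are not independent. Fitted log2 fold changes were 1.14 for the abundant atp2a2a, 1.06 for casq2, 1.05 for ryr2b, 1.17 for slc8a1a and 1.33 for cacna1c (edgeR adjusted p = 6.62e-10, 6.52e-09, 3.90e-09, 2.95e-10 and 0.000119). Set against cardiomyocyte marker RNA, this gap was narrower for these 5 in 4 of 4 libraries. That was fixed in advance and is no result about these genes. Cardiomyocytes were gated on a minimum share of these markers and held more of them than each other tested type. Division by the markers therefore lowers the fold of any gene. Per 1000 marker UMIs, cardiomyocytes over other types came to 1.08 to 1.81-fold for the abundant atp2a2a, 0.988 to 1.38-fold for casq2, 0.980 to 1.77-fold for ryr2b, 1.09 to 2.16-fold for slc8a1a and 0.862 to 3.33-fold for cacna1c. By CPM they were at 1.93 to 4.09, 1.86 to 3.93, 2.06 to 3.32, 2.15 to 3.71 and 1.34 to 5.65-fold. The highest folds per marker UMI were all in 6 hps replicate 2, where slc8a1a was at 2.16-fold, against 3.71-fold by CPM. Per 1000 marker UMIs, ventricular cells alone lay below the mean of the other types in each library for the abundant atp2a2a, ryr2b and slc8a1a. For the abundant atp2a2a they had 7.77 to 9.01, against 8.59 to 12.9 for that mean. For casq2 and cacna1c they lay below it in all but 6 hps replicate 2. The same division lowers these values, so this order is no result about these genes either. By CPM ventricular cells lay above the mean of the other types in each library for the abundant atp2a2a, casq2, ryr2b and slc8a1a. For the abundant atp2a2a they had 643 to 871 CPM, against 333 to 579 CPM. For cacna1c they lay above it by CPM in all but 6 hpci replicate 1. Per 1000 marker UMIs the exchanger slc8a1a had 2.25 to 3.14 UMIs in atrial cells and 0.704 to 1.01 in ventricular cells. Endocardium had 1.09 to 1.55 and erythrocytes 0.820 to 1.503, so that the atrial range lay above all 3. On this scale the atrial range did not lie above every type, since neutrophils had 0.984 to 2.34. The 2.34 was in 6 hpci replicate 2, where atrial cells had 2.94. The ventricular range of slc8a1a lay below that of endocardium per 1000 marker UMIs. By CPM the order was the opposite, with 55.5 to 97.2 CPM in ventricular cells and 40.6 to 45.6 CPM in endocardium.

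The sparse atp2a2a feature (ENSDARG00000005122) differed. Its log2 fold change between cardiomyocytes and other types was -0.24 (SE 0.18, edgeR adjusted p = 0.240), with a median over libraries of 9.82 CPM in neutrophils, 7.21 in atrial cells, 7.19 in macrophages, 6.62 in endocardium, 3.95 in ventricular cells and 1.71 in erythrocytes. Per 1000 cardiomyocyte marker UMIs it was 0.185 to 0.677-fold in cardiomyocytes, below 1 in 4 of 4 libraries, where the abundant feature was above 1 in 4 of 4. By CPM the sparse feature was at 0.568 to 1.17-fold. These values rest on 25 UMIs in erythrocytes and 48 in neutrophils.

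The L-type channel is also known from smooth muscle. In smooth muscle and mural cells cacna1c had 12 UMIs in all and 0.481 to 3.27 CPM, with a log2 fold change of 0.82 over the other non-cardiomyocyte types (SE 0.58, edgeR adjusted p = 0.408). Of the 12 UMIs, 8 were in the 6 hpci libraries. Smooth muscle and mural cells also held 39673 to 77489 CPM of summed cardiomyocyte markers. None of the 6 features passed this test, in which 7.85% of 7234 genes were called higher. On simulated data this test missed many of the smaller changes put in, so a missing call does not show that a feature did not differ.

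**Figure D3:**
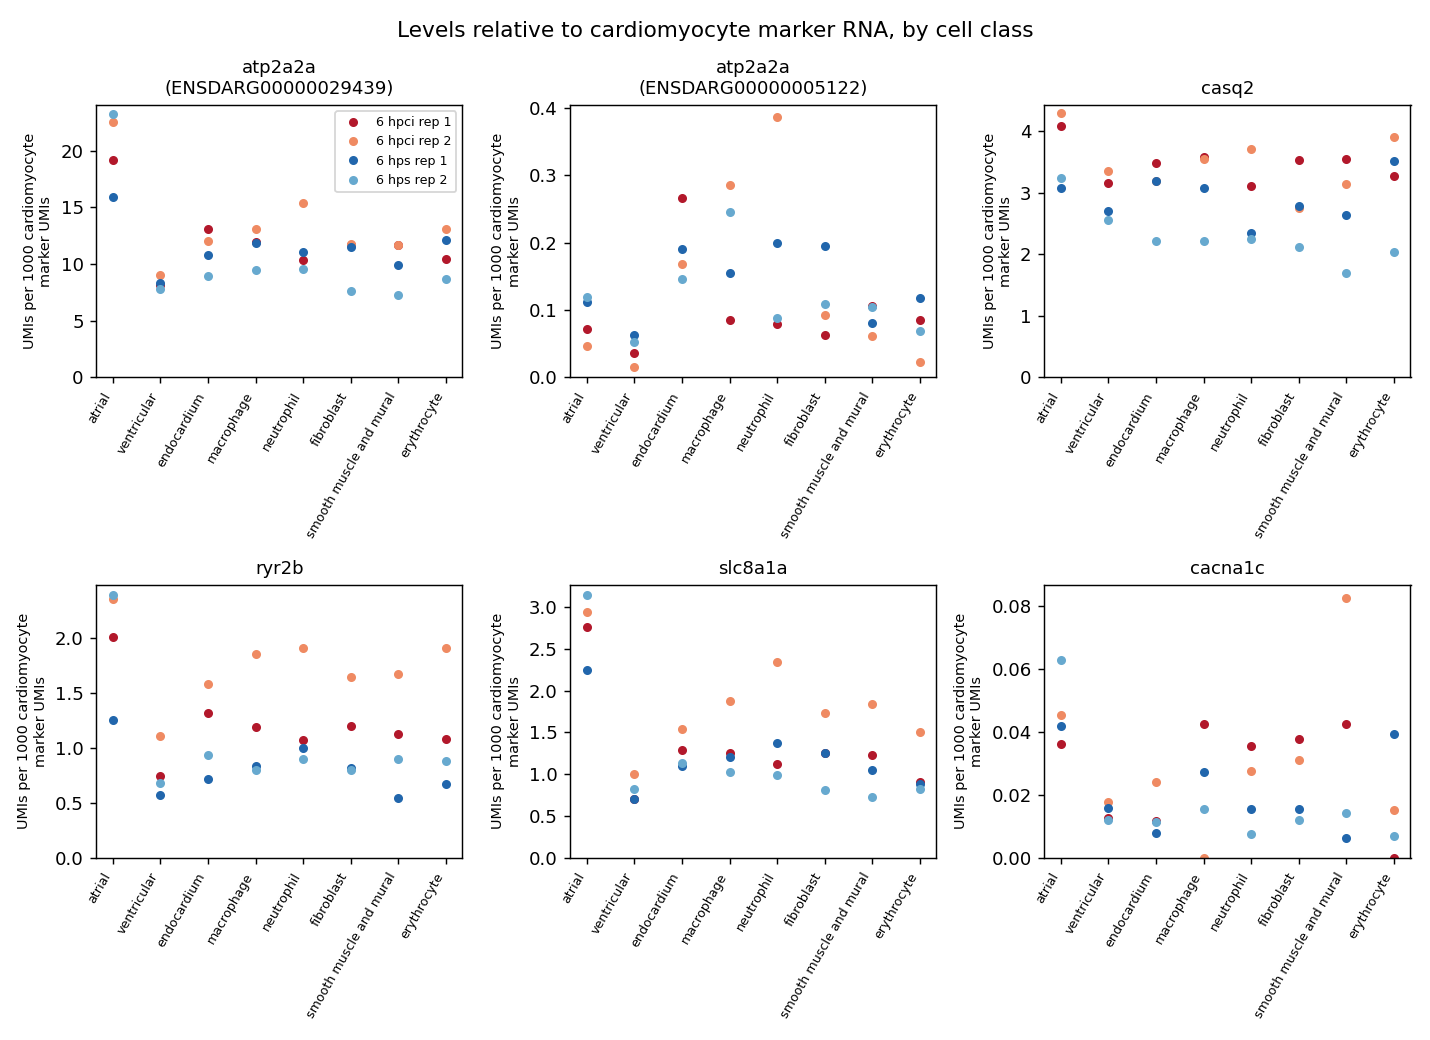
UMIs of each feature per 1000 UMIs of summed cardiomyocyte markers (y axis) in 8 gated cell types (x axis), with a point for each library. Within each library atrial cells stand highest for the abundant atp2a2a and for slc8a1a (2.25 to 3.14). On this scale the sparse atp2a2a feature is higher in several other types than in cardiomyocytes. Division by the markers lowers the fold of any gene in cardiomyocytes. By CPM the sparse feature was at 0.568 to 1.17-fold in cardiomyocytes over other types, and it did not pass the test.

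Between 6 hpci and 6 hps no feature passed the test in either chamber. In ventricular cells 0 of 10410 genes were called (0%), with 424 at an unadjusted p under 0.05 and 17 calls by DESeq2. In atrial cells 0 of 7505 were called (0%), with 690 at an unadjusted p under 0.05 and 0 calls by DESeq2. With the replicate number as a block 14 ventricular and 73 atrial genes were called, none of the 6 features among them. On simulated data these group tests missed most of the changes put in, so a missing call does not show that a gene did not differ. The group folds depend on scaling. The median gene lay at -0.026 in ventricular and -0.071 in atrial cells on the log2 scale with TMM factors, and at -0.55 and -0.57 with library sizes alone, as in CPM.

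The abundant atp2a2a had 643 and 871 CPM in ventricular cells at 6 hpci, against 855 and 733 CPM at 6 hps. The groups overlapped and the replicate pairs went opposite ways, at 0.753 and 1.19-fold. The TMM-scaled log2 fold change was 0.48 (SE 0.34, edgeR adjusted p = 0.822), and with library sizes alone it was -0.068. In atrial cells the 6 hpci over 6 hps pairs were at 0.960 and 1.01-fold by CPM, with a log2 fold change of 0.50 (SE 0.32, edgeR adjusted p = 0.601), or -0.019 with library sizes alone. With a library left out the fitted values of the abundant atp2a2a were 0.14 to 0.74 in ventricular and 0.053 to 0.93 in atrial cells.

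The release channel ryr2b had the largest fitted group difference of the 6 in ventricular cells, 1.01 (SE 0.44, unadjusted p = 0.0445, edgeR adjusted p = 0.822). Its CPM of 58.8 and 107 at 6 hpci stood against 58.1 and 63.8 at 6 hps, with replicate pairs at 1.01 and 1.67-fold. The 6 hpci library of replicate 2 was also the one rich in mitochondrial RNA, and the part of this was not tested. Without 6 hpci replicate 2 the TMM-scaled log2 fold change of ryr2b was still 0.39. Calsequestrin casq2 had the largest in atrial cells, 0.80 (SE 0.36, unadjusted p = 0.0392, edgeR adjusted p = 0.532), with 284 and 354 CPM at 6 hpci against 268 and 256 CPM at 6 hps. Its atrial groups did not overlap, which unchanged genes can show too with 2 libraries per group. The share of all genes that separated was not counted. The log2 fold change of casq2 was 0.44 without 6 hpci replicate 2.

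The exchanger slc8a1a had log2 fold changes of 0.60 in ventricular and 0.48 in atrial cells (edgeR adjusted p = 0.822 and 0.656), with atrial pairs at 0.984 and 0.974-fold by CPM. With a library left out they were 0.021 to 0.99 and 0.12 to 0.85. For cacna1c they were 0.53 and 0.13 (edgeR adjusted p = 0.839 and 0.950), with 95% intervals of -0.53 to 1.58 and -0.86 to 1.12.

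With TMM factors the sparse atp2a2a feature was the only one of the 6 with a fitted value below 0 in both chambers, -0.84 in ventricular cells (95% interval -1.68 to 0.013, edgeR adjusted p = 0.822) and -0.64 in atrial cells (95% interval -1.52 to 0.24, edgeR adjusted p = 0.626). With library sizes alone the abundant atp2a2a (-0.068 and -0.019) and cacna1c (-0.023 and -0.41) were below 0 in both as well. By CPM it had 2.91 and 1.54 in ventricular cells at 6 hpci against 6.39 and 5.0 at 6 hps, and 5.02 and 3.84 in atrial cells at 6 hpci against 9.73 and 9.40 at 6 hps. The groups did not overlap in either chamber, and the pairs were at 0.456 and 0.308-fold in ventricular and 0.516 and 0.409-fold in atrial cells. With 2 libraries per group unchanged genes can separate in this way too, and the share of all genes that did was not counted. Both chambers came from the same 4 libraries, so they are not independent.

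**Figure D4:**
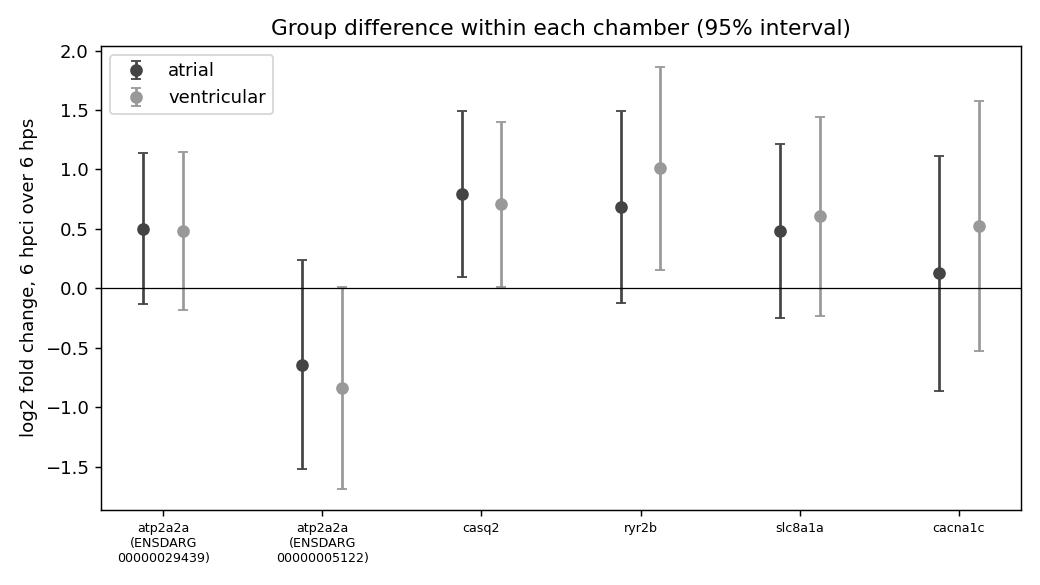
TMM-scaled log2 fold change of 6 hpci over 6 hps (y axis) for the 6 features (x axis) in atrial and ventricular cardiomyocytes, with 95% intervals. The intervals are not adjusted for the number of genes tested. No feature was called after adjustment, and with this scaling the sparse atp2a2a feature alone lies below 0 in both chambers, at -0.64 and -0.84. With library sizes alone the abundant atp2a2a and cacna1c lay below 0 in both too.

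The group difference was also compared between the chambers. The interaction of group and chamber called 0 of 9722 genes (0%; 509 had an unadjusted p under 0.05), and for the 6 features it lay between -0.40 for cacna1c and 0.36 for the sparse atp2a2a feature (edgeR adjusted p = 0.993 for each). For the abundant atp2a2a the 95% interval of this difference was -0.34 to 0.57, and for slc8a1a -0.41 to 0.50. On simulated data the interaction test too missed most of the changes put in. A missing call therefore does not show that the group difference was alike in both chambers.

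Other genes of calcium handling were read from 6 lists of 112 symbols, of which 11 were absent from the gene table. The remaining symbols stood on 106 features, and 56 of these were tested between the chambers. In atrial cells 17 were higher, 10 were lower and 29 did not pass, where 13.6% of all genes tested were called higher and 17.1% lower, with a median log2 fold change of 0.28 against 0.021 over all genes tested. With library sizes alone these counts were 28 higher and 6 lower, where 37.0% of all genes were called. In the release and store list 9 of 19 were higher and 3 lower, in the entry list 2 of 6 were higher and 1 lower, and among calmodulin and kinase genes 4 of 20 were higher and 5 lower, each beside the 30.7% of all genes called in either direction.

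The T-type calcium channel gene cacna1g was the furthest apart of the list genes with at least 20 CPM in a chamber. It had 56.8 and 39.8 CPM in atrial cells at 6 hpci and 29.3 and 33.4 CPM at 6 hps, against 17.8 and 13.3 CPM in ventricular cells at 6 hpci and 8.99 and 13.1 CPM at 6 hps (log2 fold change 1.29, edgeR adjusted p = 1.05e-08). The chambers did not overlap. Among partners of the ryanodine receptor, triadin (trdn), which anchors calsequestrin to it, averaged 92.1 CPM in atrial and 60.7 CPM in ventricular cells (0.33, edgeR adjusted p = 0.0215). Sarcalumenin (srl), a calcium-binding protein of the store, averaged 145 and 85.8 CPM in atrial and ventricular cells (0.49, edgeR adjusted p = 0.000769), and the store chaperone gene calr3a 20.6 and 8.07 CPM (1.08, edgeR adjusted p = 8.11e-07).

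Of the 10 list genes called lower in atrial cells, 5 had at least 20 CPM in a chamber. The FK506-binding protein gene fkbp1aa, of a family that binds ryanodine receptors, averaged 130.4 CPM in atrial and 156 CPM in ventricular cells (-0.54, edgeR adjusted p = 0.000246), and smdt1b, of the mitochondrial calcium uniporter, 66.1 and 83.6 CPM (-0.62, edgeR adjusted p = 0.000182). Both were still called with library sizes alone, at -0.26 and -0.34. For casq1b, a further calsequestrin gene (-0.51), and the calmodulin genes calm1a (-0.40) and calm3a (-0.32), library sizes alone gave -0.23, -0.12 and -0.043, which were not called. The other 5 were sparser, and some lay further apart. The beta-2 adrenergic receptor gene adrb2b, named after its values were seen, averaged 0.815 CPM in atrial and 2.98 CPM in ventricular cells (-2.29, edgeR adjusted p = 1.66e-06). Sparse list genes went the other way too, among them adrb1 (1.69, edgeR adjusted p = 0.0104) and calr (1.97, edgeR adjusted p = 2.94e-07), also named after their values were seen.

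**Figure D5:**
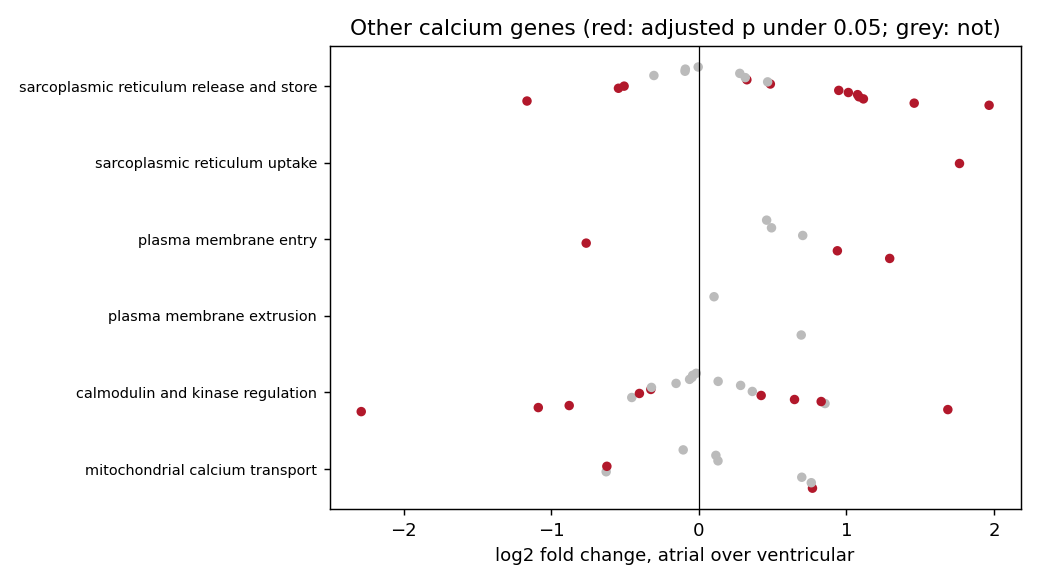
Log2 fold change of atrial over ventricular cardiomyocytes (x axis, TMM scaled) for the 56 tested genes of 6 calcium lists (y axis), with a point for each gene in red where it was called and in grey where it was not. Called genes lie on both sides of 0, with 17 higher and 10 lower in atrial cells.

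Between 6 hpci and 6 hps 0 of 56 list genes were called in ventricular cells and 0 of 47 in atrial cells. An unadjusted p under 0.05 was reached by 3 and 7 of them, and DESeq2 gave 0 calls in either chamber. With the replicate block 1 of the 47 atrial genes was called lower at 6 hpci, where 0.973% of all genes were called. Without 6 hpci replicate 1 there were 2 of 52 called higher, where 1.39% of all genes were called.

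Across the 8 gated types and 4 libraries (32 sums), likeness to each feature was described by Pearson's r of log2(CPM + 1) over genes with a mean of at least 50 CPM. These sums share libraries, and cardiomyocyte marker RNA was present in the types of each. The abundant atp2a2a was closest to bves (0.981), lmo7a (0.977) and nnt (0.969), and slc8a1a to lmo7a (0.975), the abundant atp2a2a (0.965) and zgc:85722 (0.961). The nearest genes to casq2 were pdhb (0.978), tnnt2a (0.972) and tpm4a (0.970), none of which was among the nearest 3 of another feature. Of these, tnnt2a was itself a cardiomyocyte marker of the gate, so its likeness is not independent of the gating. For ryr2b the nearest genes were zgc:85722 (0.961), aldh6a1 (0.955) and slc8a1a (0.953), and for cacna1c zgc:85722 (0.817), slc8a1a (0.804) and ryr2b (0.803). The sparse atp2a2a feature was nearest to xbp1 (0.919), rsrp1 (0.863) and atf4b (0.860), so its nearest genes were other than those of the abundant one.

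Atrial cells differ in natriuretic peptide B (nppb), and the features were read in thinned atrial cells with and without an nppb UMI, with no test. In 6 hps replicate 1 only 4 atrial cells had none, too few to compare. In 6 hpci replicates 1 and 2 and 6 hps replicate 2 there were 246, 347 and 526 cells with a UMI and 71, 350 and 78 without. Values without a UMI thus rest on few cells in 6 hpci replicate 1 and 6 hps replicate 2. In the same order the exchanger slc8a1a had 230, 274 and 265 CPM in cells with a UMI, against 197, 217 and 231 CPM in cells without. The other abundant features did not go one way in the 3 libraries. The abundant atp2a2a had 1610, 1968 and 1917 CPM with a UMI against 1423, 1801 and 1936 CPM without, and casq2 272, 340.1 and 277 CPM with a UMI against 275, 330 and 263 CPM without. For ryr2b these values were 163, 212 and 199.6 CPM with a UMI and 162, 206 and 250 CPM without. The sparse atp2a2a feature and cacna1c were too rare in these cells to compare.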

How the data were processed

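The authors mapped the reads of the 4 libraries with Cell Ranger 4.0.0 to the zebrafish genome GRCz11 and deposited UMI counts per gene and barcode, which were not normalized and had been reduced to called cells. The submitters' processing notes name the same tool and build. Groups and replicate numbers came from the titles in the labels, and 0 columns of per-sample values were left unused. The members, lists and tests were chosen with earlier results of these data known.

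Cells were kept from 500 UMIs and 200 genes upward, if mitochondrial RNA made up no more than 50%. A type other than cardiomyocytes needed at least 3 of its markers detected and a marker share at least 5 times the library mean, and erythrocytes at least 30% haemoglobin UMIs. Cells of several types were set aside. Cardiomyocytes needed no other type, at least 10 chamber myosin UMIs and a marker share of at least 0.5 times the library median. These cutoffs were set after the data were seen. The 27088 cells that passed no gate were shallow, with a median per library of 1366 to 1801 UMIs. Their summed cardiomyocyte markers were at 57097 to 79697 CPM. Shallow cardiomyocytes can miss the minimum of myosin UMIs, and how many did was not tested. No doublet caller was run, and blood vessel endothelium was not gated apart. Types with under 20 cells in a library were not tested, so epicardium, T cells, B cells and thrombocytes were left out.

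Raw UMIs were summed per library and type and tested with edgeR 4.0.16 in R 4.3.3 (TMM factors, minimum count of 10, robust quasi-likelihood, p adjusted by Benjamini-Hochberg). Standard errors are the absolute log2 fold change over the square root of F, and 95% intervals come from them. CPM are sums over all UMIs of a type. The fits were tested on simulated data. Most changes put in were recovered between the chambers and between cardiomyocytes and other types. Most were missed between 6 hpci and 6 hps and in the interaction of group and chamber. Unadjusted p-values of unchanged genes were near their nominal rate, while false calls after adjustment were above it in most comparisons, so an adjusted p close to the threshold is weak. Genes named besides the members were calcium list genes called between the chambers with at least 20 CPM in a chamber, and the 3 genes most like each member. The sparse adrb2b, adrb1 and calr were named outside this rule. Symbols were matched in the deposited gene table.

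Alternatives were library sizes alone, no filter, a limit of 30% mitochondrial UMIs, no mitochondrial genes, each library left out, DESeq2 1.42.0, a 95% myosin gate, the replicate number as a block, and chambers from Leiden clusters (scanpy 1.11.5). Clusters were made without the members and chamber myosins. They placed 9233 cells in atrial clusters and 23704 in ventricular ones, against 2220 and 11698 by gate. The atrial clusters had 55.4 and 55.7% atrial myosin, so both myosins were present in them. Their naming cutoffs (atrial from 50%, ventricular up to 20% atrial myosin) were set after the clusters were seen, were loosened for a time and were then returned to their first values. The partition moved with thread and seed settings, so a second seed was added, as were thinning and leaving out cells over 20000 UMIs, all chosen after seeing the data. Same-numbered libraries shared operators in the study's sample table, so the numbers gave the replicate pairs of CPM folds and the block of an alternative. The main group fits used the group alone. Deviations of same-numbered libraries from the group means correlated at 0.216 in ventricular and 0.204 in atrial cells. These correlations run over genes, with 2 libraries per group, so they do not show that the libraries were paired.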

Additional observations from a re-analysis of the deposited data

How the results depend on the processing

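Between chambers the abundant atp2a2a (0.50 to 1.04), ryr2b (0.63 to 1.14) and slc8a1a (0.75 to 1.56) kept their call in 14 of 14 alternatives. For cacna1c 13 of 14 did, the exception being 0.78 with 30% mitochondrial UMIs. The sparse atp2a2a feature was not called with no filter (0.50), 30% mitochondrial UMIs (0.55), DESeq2 (0.54), Leiden clusters (0.45) or thinned cells (0.71), and was at 0.40 to 0.70 with a library left out. For casq2 library sizes alone gave 0.089. It was called lower with the 95% gate (-0.36), without 6 hpci replicate 2, and with Leiden clusters (-0.28, second seed -0.29), whose atrial clusters held both myosins. With a library left out casq2 was at -0.30 to -0.15. Genes called were 2985, against 1924 with 30% mitochondrial UMIs, 1475 with thinned cells and 2130 to 2539 with a library left out. Between 6 hpci and 6 hps no feature was called in any alternative. Ventricular calls were 49 with no filter, 17 with DESeq2, 14 with the replicate block and 0 to 75 with a library left out, and atrial calls were 28 with no filter, 73 with the replicate block and 24 to 120 with a library left out. Library sizes alone turned ventricular atp2a2a (-0.068) and cacna1c (-0.023) and atrial atp2a2a (-0.019), slc8a1a (-0.033) and cacna1c (-0.41). With a library left out cacna1c was at -0.0092 to 0.93 in ventricular and -0.44 to 0.53 in atrial cells. The interaction called 7 genes with no filter, 1 with 30% mitochondrial UMIs, 7 with the 95% gate and 0 to 20 with a library left out. There slc8a1a was at -0.017 with library sizes alone, -0.043 with no filter and -0.0094 with the 95% gate, and 30% mitochondrial UMIs gave -0.00046 for the abundant atp2a2a and -0.13 for casq2. With a library left out the interaction was -0.18 to 0.40 for the abundant and -0.14 to 0.72 for the sparse atp2a2a, -0.013 to 0.25 for casq2, -0.44 to 0.16 for ryr2b, -0.095 to 0.13 for slc8a1a and -0.85 to 0.072 for cacna1c. Against other types the sparse atp2a2a was at 0.047 with library sizes alone and 0.080 with no filter, and in smooth muscle the abundant one was at -0.0033 with 30% mitochondrial UMIs. Smooth muscle calls with a library left out were 452 to 966. The causes were not tested. In 3 alternatives each of the comparisons of cell types, and in 3 in all of the group comparisons, cacna1c was too sparse to be fitted. The depth of cacna1c and the sparse atp2a2a limits their precision.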
